A study of Mus musculus with 8 samples.

Results

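Early oocyte transcription factors, the genes *Sohlh1*, *Sohlh2*, *Figla*, *Nobox*, *Lhx8* and *Taf4b*, were taken by symbol from the table of read counts per gene, 6 of its 45583 symbols, and the choice used no measured value. The counts come from whole ovaries of 3-week-old C57/Bl6 mice, 1 library per animal, with 4 libraries labelled WT (1118 to 1121) and 4 labelled GOAT KO (1139, 1140, 1141 and 1146). GOAT is ghrelin-O-acyltransferase, the product of *Mboat4* and the enzyme that attaches the acyl group to ghrelin, and the GOAT KO line carries a deletion of that gene. No animal was treated, and WT and GOAT KO mice came from crosses of heterozygous parents. The comparison asks how expression of these genes in the juvenile ovary differed without the enzyme.

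Within the ovary SOHLH1, SOHLH2, FIGLA, NOBOX and LHX8 act in the oocyte from the primordial follicle onward. Mice lacking any of these factors or TAF4B lose oocytes or oocyte gene expression early. SOHLH1, SOHLH2 and FIGLA are basic helix-loop-helix proteins, which bind DNA as dimers at E boxes of the form CANNTG. SOHLH1 and SOHLH2 can pair with each other and act upstream of *Lhx8* and *Nobox*, whereas FIGLA pairs with E proteins such as TCF3 and turns on the zona pellucida genes. NOBOX and LHX8 are homeodomain proteins, and TAF4B is a subunit of the general transcription factor TFIID that is enriched in germ cells.

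The counts of a library on all genes summed to between 16147216 and 19481798. *Mboat4* had 1, 1, 1 and 3 counts in WT 1118, 1119, 1120 and 1121, against 5, 7, 7 and 8 in GOAT KO 1139, 1140, 1141 and 1146. These few counts lie near the floor, and which part of the gene gave them was not tested. Their direction goes against the labels, so the groups are called by their labels throughout and each direction below rests on those labels. The study also assayed *Mboat4* by PCR in ovaries of this line, and those measurements were not analysed here. GOAT KO 1139 stood apart on the scaling plot, at 1.21 on the first dimension where the other libraries lay between -0.47 and 0.17, and its fat genes summed to 458.0 CPM (counts scaled to library size) against 13.2 to 30.6 in the others. The study left out 1 library of each group after such a plot, so values are also given over 6 libraries, without WT 1120 and GOAT KO 1139, a pair that the methods do not name and that was chosen with earlier results of these data known, *Sohlh1* among them. On the plot WT 1118 (-0.473 and 0.756 on the first and second dimension) lay no nearer the centre than WT 1120 (0.171 and -0.429). The general oocyte markers *Ddx4*, *Dazl*, *Gtsf1*, *Mael*, *Ybx2* and *Pabpc1l* were read in every library, with summed levels of 93.6 to 108.6 CPM in libraries labelled WT and 98.0 to 111.8 CPM in those labelled GOAT KO. Whole ovary RNA cannot tell fewer oocytes from less RNA per oocyte.

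The 3 helix-loop-helix genes are shown with the 250 bases upstream of their RefSeq starts (GRCm38.p6). They are the members with the largest edgeR log2 fold changes over 8 libraries, and their own products read E boxes. By p, *Taf4b* ranked ahead of *Sohlh2* (3966 against 4164 of 16601 genes), and the *Sohlh2* log2 fold change was 0.03 without GOAT KO 1141. Capitals mark each CANNTG, a motif that reads the same on both strands and includes CACGTG. The *Sohlh1* window is chr2:25847249-25847498 (- strand), the *Sohlh2* window chr3:55181794-55182043 (+ strand) and the *Figla* window chr6:86016941-86017190 (+ strand), and each is printed 5′ to 3′.
Sohlh1: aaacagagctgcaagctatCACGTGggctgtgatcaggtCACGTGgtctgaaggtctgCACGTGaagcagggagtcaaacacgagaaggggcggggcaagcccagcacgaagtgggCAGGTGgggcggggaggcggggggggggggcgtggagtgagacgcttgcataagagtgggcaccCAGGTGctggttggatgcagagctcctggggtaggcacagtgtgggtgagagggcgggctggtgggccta
Sohlh2: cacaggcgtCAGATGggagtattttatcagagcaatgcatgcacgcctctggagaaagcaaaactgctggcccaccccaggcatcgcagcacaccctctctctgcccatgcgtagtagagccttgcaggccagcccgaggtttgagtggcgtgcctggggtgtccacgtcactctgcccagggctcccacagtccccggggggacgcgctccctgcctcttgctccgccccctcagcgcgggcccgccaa
Figla: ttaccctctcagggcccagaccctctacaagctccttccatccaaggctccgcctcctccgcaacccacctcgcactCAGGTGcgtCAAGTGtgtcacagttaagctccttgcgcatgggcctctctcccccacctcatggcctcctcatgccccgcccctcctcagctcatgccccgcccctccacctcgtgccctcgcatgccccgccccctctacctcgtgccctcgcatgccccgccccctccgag
The *Sohlh1* window held 5 CANNTG, of which 3 were CACGTG with first bases at -231, -211 and -192 from the start. At least 3 CACGTG stood in 20 of the 32841 RefSeq promoters of this length (0.0609%), and at least 5 CANNTG in 1.15%. The CACGTG count was looked at after the sequence had been seen. *Sohlh2* held 1 CANNTG and *Figla* 2, numbers that 66.2% and 31.8% of promoters reached. Of the homeodomain genes, *Nobox* held 2 CANNTG and *Lhx8* none. The motifs TAATTG and TGATTG, searched on both strands because NOBOX binds such sites, were in none of the 5 windows and in 7.17% and 12.7% of all promoters. *Taf4b* had no entry in the promoter table. A match is only a run of letters, and none was tied to binding by these data.

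*Sohlh1*, which encodes the factor that primordial oocytes need to enter growth (chromosome 2 from 25842995 to 25847248, - strand), was the member with the largest difference. It had 1.36, 2.39, 2.08 and 2.67 CPM in WT 1118, 1119, 1120 and 1121, and 1.97, 3.78, 6.19 and 3.60 CPM in GOAT KO 1139, 1140, 1141 and 1146. Of the libraries labelled GOAT KO, 3 lay above all those labelled WT and GOAT KO 1139 lay among them, so the groups overlapped. These CPM rest on 22 to 49 counts per library labelled WT and 33 to 121 per library labelled GOAT KO. The means were 2.13 ± 0.562 CPM (SD, n = 4) and 3.89 ± 1.74 CPM (SD, n = 4). The log2 fold change was 0.87 (SE 0.319, 95% interval 0.168 to 1.57) with an unadjusted p = 0.0198 and, after Benjamini-Hochberg correction across all genes, an adjusted p = 0.983 (quasi-likelihood test of edgeR). With the 6 libraries it was 1.08 (SE 0.282, edgeR unadjusted p = 0.00301, adjusted p = 0.339), and there the 2 groups did not overlap, as was so for 15.8% of genes. The exact two-sided permutation test of log2(CPM + 0.5) over all 8 libraries gave p = 0.114, where 4 against 4 cannot go below 0.0286. *Sohlh1* is one of the genes the study itself picked from these libraries, so its direction is not independent evidence.

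The difference in *Sohlh1* rested on 2 libraries in particular. Without GOAT KO 1141 the log2 fold change was 0.54 (edgeR unadjusted p = 0.0877), and without WT 1118 it was 0.72 (edgeR unadjusted p = 0.0582). Leaving out GOAT KO 1139 gave the highest value, 1.09. The CPM varied by 44.7% (coefficient of variation) over the libraries labelled GOAT KO and by 26.5% over those labelled WT, where counting error alone would give 12% and 16.2%.

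*Sohlh2*, the dimerization partner of *Sohlh1* (chromosome 3 from 55182028 to 55209957, + strand), had the lowest level per kilobase of the 6. It had 0.928, 0.666, 0.987 and 0.762 CPM in the WT-labelled libraries 1118 to 1121, and 0.777, 0.916, 1.64 and 0.871 CPM in GOAT KO 1139, 1140, 1141 and 1146. GOAT KO 1141 alone exceeded the highest value under the WT label, and the rest were mixed. These values stand on 12 to 32 counts a library. The means were 0.836 ± 0.148 CPM (SD, n = 4) and 1.05 ± 0.395 CPM (SD, n = 4), a log2 fold change of 0.35 (SE 0.286, 95% interval -0.284 to 0.977) that did not pass edgeR's test (unadjusted p = 0.251). Without GOAT KO 1141 it was 0.03, and with the 6 libraries it was 0.56 (edgeR unadjusted p = 0.12).

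*Figla*, the factor in the germline alpha that drives the zona pellucida genes (chromosome 6 from 86016171 to 86020996, + strand), had 2.10, 2.16, 1.97 and 2.40 CPM in WT 1118, 1119, 1120 and 1121. It had 2.87, 3.36, 3.53 and 2.09 CPM in GOAT KO 1139, 1140, 1141 and 1146. Again 3 libraries labelled GOAT KO were above all those labelled WT, and here GOAT KO 1146 was the one that lay among them. The means were 2.16 ± 0.177 CPM (SD, n = 4) and 2.96 ± 0.645 CPM (SD, n = 4). The log2 fold change was 0.46 (SE 0.19, 95% interval 0.0376 to 0.874) with an unadjusted p = 0.0353 and an adjusted p = 0.983 by edgeR, short of the 0.5 that the study asked for. With the 6 libraries it was 0.43 and the unadjusted p was 0.088 by the same edgeR test. The exact two-sided permutation test over all 8 libraries gave p = 0.114. The edgeR unadjusted p was over 0.05 when WT 1118, WT 1119, WT 1120, GOAT KO 1140 or GOAT KO 1141 was left out, with log2 fold changes of 0.35 (without GOAT KO 1141) to 0.45, and the log2 fold change was 0.59 without GOAT KO 1146.

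**Figure D1:**
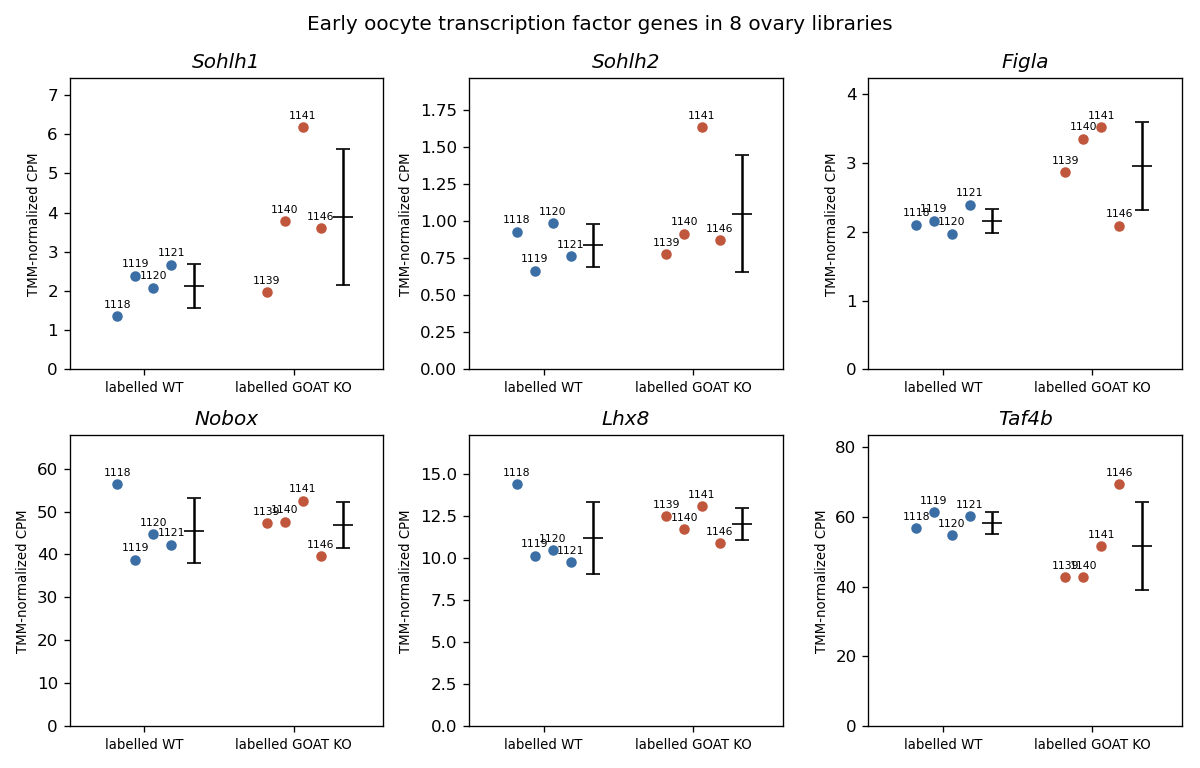
TMM-normalized CPM (linear axis from 0) of the 6 genes in each library, with the animal number above each point and the group mean ± SD (n = 4) as a black bar. For *Sohlh1* and *Figla* 3 of 4 libraries labelled GOAT KO lie above every library labelled WT, GOAT KO 1139 and GOAT KO 1146 being the exceptions, and for every gene the groups overlap.

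*Nobox*, the homeobox gene of oocytes whose product acts on *Gdf9* and other oocyte genes (chromosome 6 from 43303674 to 43309554, - strand), had 56.4, 38.8, 44.8 and 42.3 CPM in WT 1118 to 1121 and 47.3, 47.7, 52.6 and 39.6 CPM in the GOAT KO libraries in the order above. Both groups had a low and a high library, and the ranges overlapped almost wholly. The means were 45.6 ± 7.65 CPM (SD, n = 4) and 46.8 ± 5.36 CPM (SD, n = 4), and the log2 fold change was 0.04 with a 95% interval of -0.225 to 0.304 (SE 0.12, edgeR unadjusted p = 0.748). *Lhx8*, a LIM-homeobox gene needed for primordial follicles to activate (chromosome 3 from 154306294 to 154330659, - strand), had 14.4, 10.2, 10.5 and 9.75 CPM in the libraries labelled WT and 12.5, 11.7, 13.1 and 10.9 CPM in those labelled GOAT KO. WT 1118 was the highest of all 8, and the other 3 libraries labelled WT were the lowest. The means were 11.2 ± 2.17 CPM (SD, n = 4) and 12.1 ± 0.945 CPM (SD, n = 4), and the log2 fold change was 0.11 with a 95% interval of -0.184 to 0.403 (SE 0.133, edgeR unadjusted p = 0.429). It was 0.25 without WT 1118 (edgeR unadjusted p = 0.027). These intervals leave out log2 fold changes of 0.5 in either direction, for *Nobox* and for *Lhx8*.

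*Taf4b*, the TFIID subunit gene (chromosome 18 from 14783245 to 14900359, + strand), had 56.6, 61.2, 54.6 and 60.2 CPM in WT 1118 to 1121 and 42.7, 42.7, 51.5 and 69.4 CPM in GOAT KO 1139, 1140, 1141 and 1146. Which cells of the ovary gave these reads was not tested. Of the libraries labelled GOAT KO, 3 lay below all those labelled WT and GOAT KO 1146 lay above all of them. The means were 58.2 ± 3.08 CPM (SD, n = 4) and 51.6 ± 12.6 CPM (SD, n = 4), and the log2 fold change was -0.17 with a 95% interval of -0.478 to 0.132 (SE 0.138, edgeR unadjusted p = 0.238). Without GOAT KO 1146 it was -0.35 (edgeR unadjusted p = 0.00293). The processed pseudogene AC133172.1 lies on the same strand from 14830668 to 14832016, inside a *Taf4b* intron (14830189 to 14835791), and overlaps none of its annotated exons.

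The study's rule asks for an unadjusted p under 0.05 and a log2 fold change beyond 0.5 in size, and by it *Sohlh1* was the 1 member of 6 called, in the set of 8 libraries and in that of 6. Of all 16601 genes tested over 8 libraries 1.67% passed, 0.958% higher and 0.717% lower in libraries labelled GOAT KO, and of 16641 tested over 6 libraries 2.39% passed, 1.32% higher and 1.08% lower. At an unadjusted p under 0.05 alone, *Sohlh1* and *Figla* passed, against 4.62% of all genes. None of the 6 had groups that did not overlap over the 8 libraries, as 2.92% of genes did. No member had an adjusted p under 0.05, which 4 genes reached over 8 libraries and 20 over 6. The median log2 fold change over the 6 members was 0.228, beside -0.00035 over all genes.

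**Figure D2:**
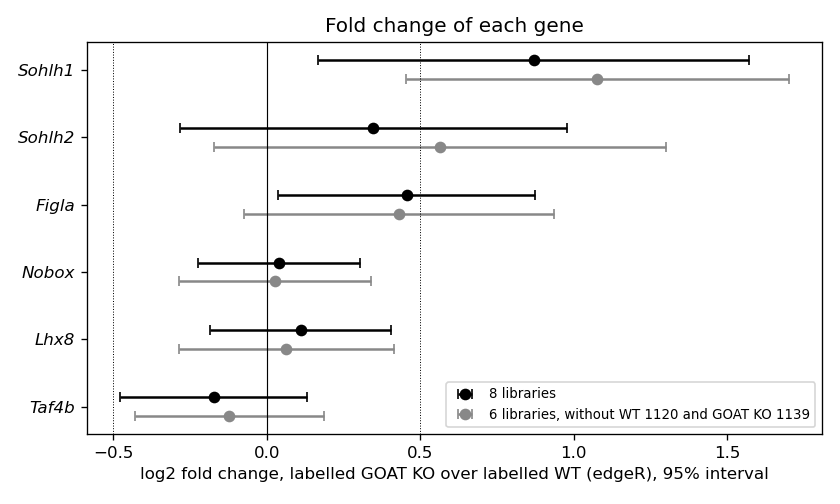
Log2 fold change (edgeR) of libraries labelled GOAT KO over those labelled WT, with 95% intervals, for 8 libraries (black) and for 6 libraries without WT 1120 and GOAT KO 1139 (grey); dotted lines mark 0.5 in each direction. The *Sohlh1* interval lies above 0 with both sets, 0.168 to 1.57 with 8 libraries, and the *Figla* interval with 8 libraries alone.

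**Figure D3:**
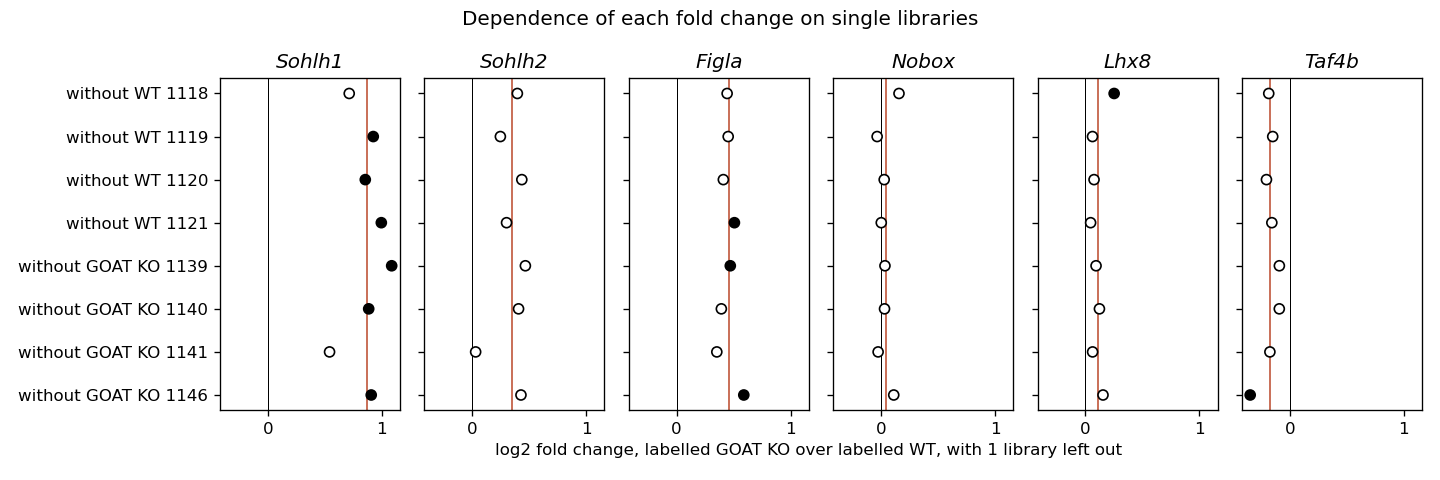
Log2 fold change (horizontal axis) after leaving out each library in turn (rows), per gene, with the value over all 8 libraries as a red line and 0 as a black line; filled circles have an unadjusted p under 0.05 by edgeR. *Sohlh1* falls to 0.54 without GOAT KO 1141, and *Taf4b* goes to -0.35 without GOAT KO 1146.

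The members differed widely in level. Per kilobase of exon, so that genes can be set side by side, *Nobox* stood at 22.7 ± 3.80 CPM per kb in libraries labelled WT and 23.3 ± 2.67 in those labelled GOAT KO, and *Taf4b* at 11.3 ± 0.598 and 10.02 ± 2.44 (SD, n = 4 each). *Lhx8* followed with 4.42 ± 0.856 and 4.76 ± 0.373 CPM per kb, then *Figla* with 2.58 ± 0.211 and 3.54 ± 0.771. *Sohlh1* had 1.65 ± 0.436 and 3.01 ± 1.35 CPM per kb and *Sohlh2* 0.354 ± 0.0625 and 0.444 ± 0.167. The step from each gene to the next held in 8 of 8 libraries, except that *Figla* was above *Sohlh1* in 6 of 8. The 2 exceptions were GOAT KO 1141 and GOAT KO 1146. In libraries labelled WT, *Figla* at 2.36 to 2.87 CPM per kb stood above *Sohlh1* at 1.06 to 2.07 without overlap, whereas in those labelled GOAT KO the ranges overlapped, 2.50 to 4.22 against 1.53 to 4.80.

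The levels also moved together in pairs over the 8 libraries. *Nobox* and *Lhx8* had the closest pattern among the members (Pearson r = 0.897 of log2 CPM), with both highest in WT 1118. *Sohlh1* had r = 0.615 with *Sohlh2* and 0.656 with *Figla*, and -0.0846, -0.0826 and -0.0439 with *Nobox*, *Lhx8* and *Taf4b*. *Figla* and *Taf4b* ran in opposite directions (r = -0.716). These values describe 8 libraries that all genes share, depth and ovary composition included, and carry no test. Over all tested genes, the 3 patterns most like *Sohlh1* were those of *Sh3bp5l*, *Mocs1* and *Lrig2* (r = 0.966, 0.966 and 0.958), and most like *Sohlh2* were *Ctnnbl1*, *G6pc3* and *Rnaseh1* (0.949, 0.947 and 0.939). *Figla* was nearest to *Nlrp4a*, *Slc7a11* and *Alg13* (0.96, 0.96 and 0.945), and *Nobox* to *Gdf9*, *Myo5b* and *Cpa1* (0.956, 0.946 and 0.944). *Gdf9* is the growth factor gene that NOBOX is known to act on. These genes were picked as the highest of 16600, and values as large were found for every member, so they show no regulatory link. *Lhx8* was nearest to *Tbata*, *Bcas1* and *Ndel1* (0.962, 0.962 and 0.955), and *Taf4b* to *Soat1*, *Gm6685* and *Aox2* (0.951, 0.949 and 0.949).

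Each member was also set beside the general oocyte markers of its own library, as log2(CPM + 0.5) of the member less the mean of the same quantity over the markers. *Sohlh1* was 0.543 higher in libraries labelled GOAT KO on that scale (exact two-sided permutation test, p = 0.171), and 0.796 over the 6 libraries (exact permutation p = 0.1, the smallest that 3 against 3 allow). It was 0.336 without GOAT KO 1141 and 0.365 without WT 1118. *Figla* was 0.224 higher (exact permutation p = 0.114). *Sohlh2*, *Nobox* and *Lhx8* differed by 0.0519, -0.0936 and -0.0226 and *Taf4b* by -0.337 (exact permutation p = 0.83, 0.457, 0.914 and 0.171). Without GOAT KO 1146 the *Taf4b* value was -0.528. Differences of log2(CPM + 0.5) without the markers were 0.681 for *Sohlh1*, 0.19 for *Sohlh2* and 0.362 for *Figla*. They were 0.0445 for *Nobox*, 0.115 for *Lhx8* and -0.199 for *Taf4b*. These, and not the edgeR fold changes, are on the scale of the relative levels. With 0.1 added in place of 0.5, the relative level differed by 0.628 for *Sohlh1*, 0.111 for *Sohlh2* and 0.27 for *Figla*. The 6 markers themselves had a median log2 fold change of 0.144, with 5 above 0 and none called. *Mael*, a piRNA pathway gene of germ cells, had the smallest p among them, with 4.37 ± 0.669 CPM (SD, n = 4) against 5.64 ± 0.914 CPM (SD, n = 4) and a log2 fold change of 0.37 (edgeR unadjusted p = 0.0417). Their part in the differences of *Sohlh1* and *Figla* was not tested beyond these relative levels.

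Genes that the factors are known to act on had small fold changes between the groups. Of 20 such genes (growth factor, zona pellucida and maternal-effect genes among them) 15 had a log2 fold change above 0 and 5 below, their median was 0.0468, and none was called in either direction. *Nlrp14*, *Padi6* and *Nlrp5*, which encode maternal-effect proteins of the oocyte, had the smallest p values. They alone of the list had an unadjusted p under 0.05 by edgeR, as 4.62% of all genes did. *Nlrp14* had 382.7 ± 16.2 CPM (SD, n = 4) in libraries labelled WT and 427.6 ± 22.7 CPM (SD, n = 4) in those labelled GOAT KO, so that its log2 fold change was 0.16 (edgeR unadjusted p = 0.021). *Padi6* had 0.17 and *Nlrp5* 0.19 (edgeR unadjusted p = 0.0435 and 0.0469), and *Zp2*, a zona pellucida gene under FIGLA, 0.14 (edgeR unadjusted p = 0.0648). *Gdf9* had 304.3 ± 28.5 and 309.6 ± 20.8 CPM (SD, n = 4 each), a log2 fold change of 0.03. Over the 6 libraries the median of the list was 0.0691 and again none was called.

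Over the 8 libraries, the levels of the 20 genes followed *Nobox* and *Lhx8* most closely, with a median r of 0.746 and 0.701 (13 of 20 over 0.5 for each). The median r was 0.578 with *Sohlh2*, 0.389 with *Figla*, 0.252 with *Sohlh1* and -0.446 with *Taf4b*, over the same shared libraries and with no test.

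No partner of the factors was called. The E proteins *Tcf3*, *Tcf4* and *Tcf12*, the LIM-domain binding genes *Ldb1* and *Ldb2*, and the TFIID genes *Taf4a* and *Taf12* had log2 fold changes between -0.109 and 0.000977, with a median of -0.0358. *Ldb1*, with the smallest p of the 7, had 242.9 ± 21.4 and 229.2 ± 7.15 CPM (SD, n = 4 each), a log2 fold change of -0.08 (edgeR unadjusted p = 0.239).

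Of 6 other genes often studied with these factors in the oocyte, 1 was called. *Tbpl2*, the oocyte-specific relative of the TATA-binding protein, had 1.18, 1.05, 1.59 and 1.74 CPM in WT 1118 to 1121 and 2.15, 2.69, 2.25 and 1.86 CPM in GOAT KO 1139, 1140, 1141 and 1146. The lowest value under the GOAT KO label exceeded the highest under the WT label, and groups likewise failed to overlap in 2.92% of genes, in one direction or the other. The means were 1.39 ± 0.328 CPM (SD, n = 4) and 2.24 ± 0.343 CPM (SD, n = 4), and the log2 fold change was 0.68 (SE 0.211, unadjusted p = 0.00853, adjusted p = 0.983 by edgeR). With the 6 libraries it was 0.76 (edgeR unadjusted p = 0.0133). The transcription factor genes *Foxo3*, *Stat3* and *Sall4*, the coactivator gene *Sub1* and the dynein light chain gene *Dynll1* had log2 fold changes between -0.05 and 0.06, and none was called.

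**Figure D4:**
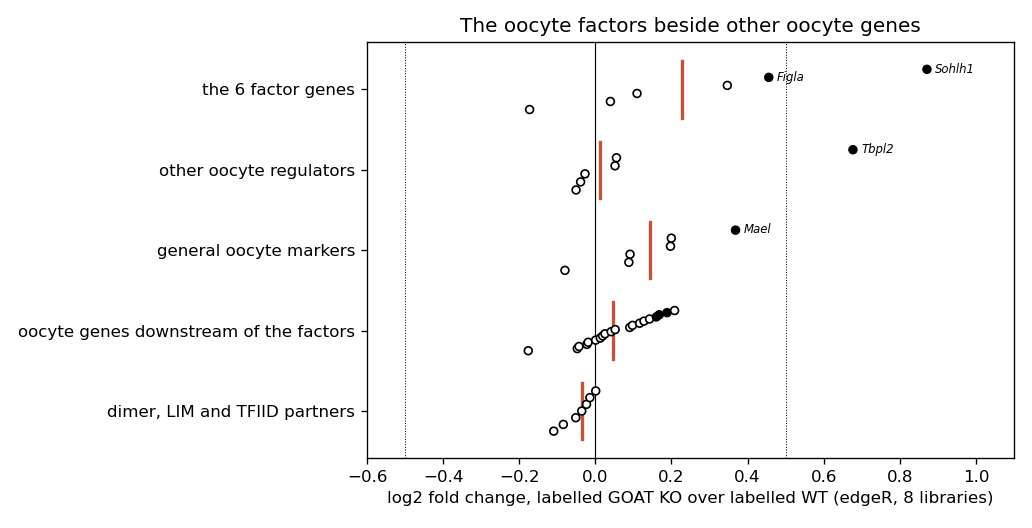
Log2 fold change over 8 libraries for each gene of 5 gene lists (rows), with list medians as red bars and filled circles for an unadjusted p under 0.05 by edgeR; names are given to filled points over 0.3. Among the 6 factor genes *Sohlh1* lies at 0.87 and *Figla* at 0.46, and all 20 downstream genes lie between -0.176 and 0.208.

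Of the genes given here that lie next to the members in the genome, 1 was called. *A230005M16Rik* and *Kcnt1*, the nearest tested genes to *Sohlh1*, had log2 fold changes of 0.01 and 0.07, and *Dusp11* and *Add2* beside *Figla* had -0.03 and 0.14. *Dclk1*, 32.4 kb beyond *Sohlh2*, had 0.58 (edgeR unadjusted p = 0.0248), which passed the rule, and *Spg20* on the other side had 0.02. Beside *Nobox* and *Lhx8*, *Arhgef5*, *Acadm* and *Tyw3* had log2 fold changes of -0.08, -0.04 and 0.01, and beside *Taf4b*, *Psma8* had -0.37 (edgeR unadjusted p = 0.211) and *Kctd1* -0.15.

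Reads that crossed splice junctions gave a count of spliced RNA alone, drawn from the same libraries. *Sohlh1* had 16 such reads in the libraries labelled WT and 51 in those labelled GOAT KO, 27 of these in GOAT KO 1141, with all 7 annotated introns seen. The log2 difference scaled to the junction reads of each library was 1.12 (exact two-sided permutation test, p = 0.143). Without GOAT KO 1141 it was 0.71. Scaled to the TMM library size instead, over all 8 libraries, the log2 difference was 0.62 (exact permutation p = 0.171). For junction reads, too, 0.5 was added before the log2, on either scale. Scaled junction reads are lower on the TMM scale, so the added 0.5 weighs more there. The scaling and that weight changed together, and their shares in the lower value were not tested. Within GOAT KO 1141, 13 of the 27 reads lay on the sixth intron, which had 6 in GOAT KO 1146, 2 in WT 1120 and none listed elsewhere. *Figla* had 11 and 25 junction reads, a log2 difference of 1.05 (exact permutation p = 0.0571). This was 0.52 over the 6 libraries and 0.61 without WT 1120, which had 0 such reads. Scaled to the TMM library size it was 0.39, where the added 0.5 again weighs more. *Sohlh2* had only 7 and 7 reads over 6 of its 10 annotated introns. *Nobox* had 695 and 680, *Lhx8* 190 and 194, and *Taf4b* 503 and 522, with log2 differences of -0.0289, 0.0173 and 0.078 (exact permutation p = 0.914, 0.943 and 0.714).

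A junction not listed is not proof that it went unused. The sixth annotated intron of *Nobox* had 39 to 77 reads in 6 libraries and was not listed in WT 1120 and GOAT KO 1146. The sums above therefore also carry whole junctions that came and went by library.

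At *Nobox* the junctions and assembled transcripts began downstream of the annotated start. The first annotated intron, from 43307674 to 43309489, had no listed read in any library, against 97 reads on the next intron. The outermost 5′ end of the authors' assembled transcripts or fragments lay between 43307675 and 43307677 in 8 of 8 libraries, 1877 to 1879 bases inside the annotated end of the gene. The shorter annotated transcript that begins at 43307236 was assembled as such in 3 libraries, WT 1121, GOAT KO 1140 and GOAT KO 1141. One alternative junction of *Nobox*, from 43304942 to 43305503, took 9 reads against 216 on the intron that shares its higher coordinate (4.0%). *Lhx8* was alike at its start, where the first and second annotated introns had no listed read and the outermost assembled 5′ end lay between 154328100 and 154328460, 2199 to 2559 bases inside, in 7 libraries. The promoter windows of *Nobox* and *Lhx8* were counted from RefSeq starts near the annotated ones, outside these assembled transcripts.

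At *Figla*, reads fell on the junction from 86017458 to 86018578 (24 reads) and none was listed on the annotated alternative that starts at 86016248. The whole coding transcript, from 86017191 to 86020996, was assembled in GOAT KO 1139, 1140 and 1141, the 3 libraries with the highest *Figla* level, and fragments in 4 others. *Sohlh1* was assembled in fragments in WT 1120 and GOAT KO 1141 alone, and *Sohlh2* in no library. *Taf4b* had no listed read on its last annotated intron, from 14859277 to 14897963 (38.7 kb), in any library, with reads on 13 of its 15 annotated introns.

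**Figure D5:**
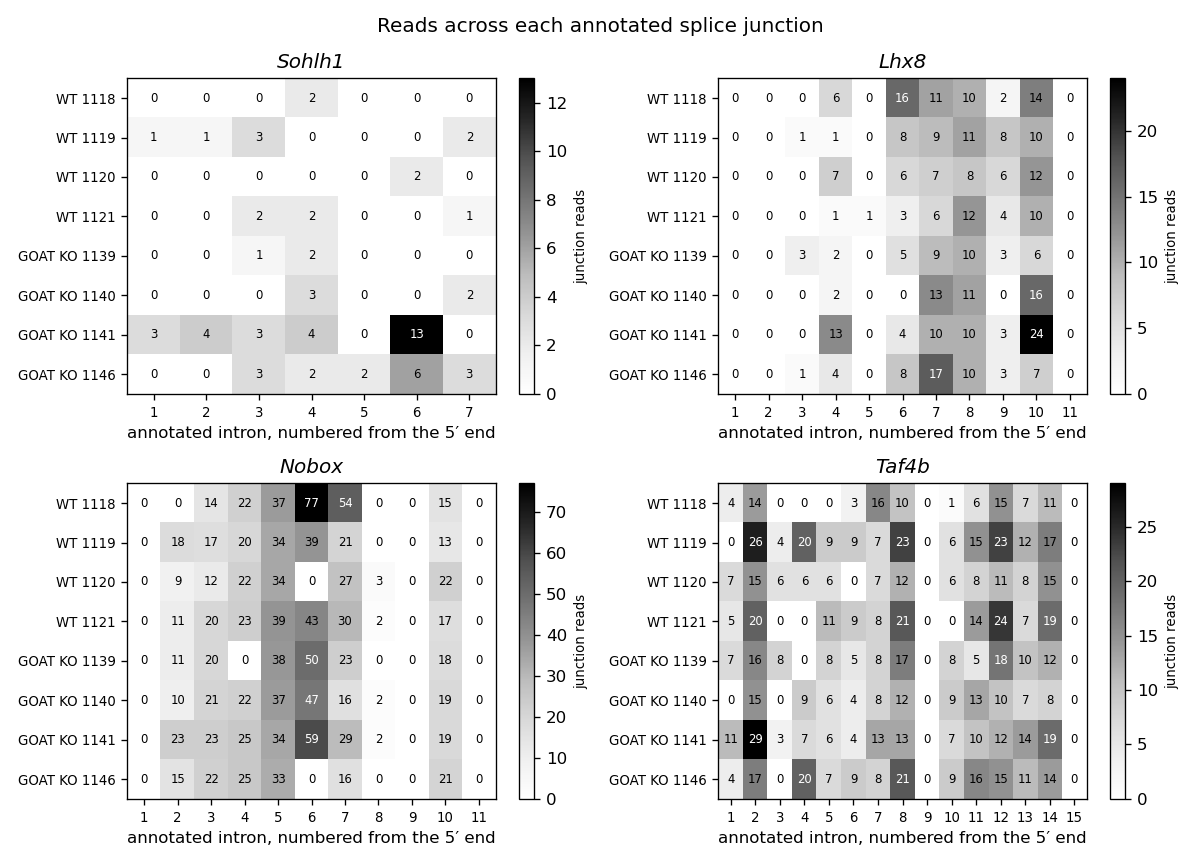
Reads across each annotated intron (columns, numbered from the 5′ end) in each library (rows) for *Sohlh1*, *Lhx8*, *Nobox* and *Taf4b*, with the read number printed in each cell and a linear grey scale per gene. The first *Nobox* intron, the first and second of *Lhx8* and the last of *Taf4b* are 0 in all libraries, and 13 of the *Sohlh1* reads of GOAT KO 1141 lie on intron 6.

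Marker genes of other ovarian cell types were measured in the same libraries. Of 7 granulosa genes none was called over 8 libraries (median log2 fold change 0.132), with *Fshr* at 0.47 (edgeR unadjusted p = 0.0141) and called over 6. With 1 library left out, 1 granulosa gene was called without WT 1120, GOAT KO 1139 or GOAT KO 1140, and the median ranged from 0.0692 (without GOAT KO 1139) to 0.155 (without WT 1120). Of 5 leukocyte genes tested 1, *Lyz2*, was called lower (-0.52, edgeR unadjusted p = 0.00188), and none without WT 1118, WT 1121 or GOAT KO 1146. Their summed level was 72.9 to 90.0 CPM in libraries labelled WT and 49.5 to 70.3 CPM in those labelled GOAT KO. Of 4 fat genes tested all 4 were called higher over 8 libraries, 0 without GOAT KO 1139 and 1, *Plin1*, over the 6 libraries. DESeq2 and limma-voom each called 1 over 8 libraries. None of the 5 theca and steroidogenic, 5 surface epithelium, 3 oviduct and 5 blood genes tested was called, with median log2 fold changes of 0.284, 0.0406, 0.206 and -0.278. With 1 library left out, the median ranged from -0.174 (without GOAT KO 1139) to 0.566 (without WT 1120, with 2 genes called) for theca and steroidogenic genes and from -0.139 (without GOAT KO 1139) to 0.658 (without WT 1120) for oviduct genes. For blood genes it ranged from -0.524 (without WT 1120) to 0.278 (without WT 1119), and for surface epithelium genes from -0.0761 (without GOAT KO 1139) to 0.0816 (without GOAT KO 1141). One theca gene was called without GOAT KO 1140, 1141 or 1146, and one oviduct gene without any 1 library labelled WT or without GOAT KO 1146. Summed levels of granulosa genes were 4706 to 5747 CPM in libraries labelled WT and 5232 to 5811 CPM in those labelled GOAT KO, and those of theca and steroidogenic genes 1964 to 3114 and 2490 to 3161 CPM. Their part in the levels of the oocyte factors was not tested. *Sohlh1* was higher without GOAT KO 1139 than with it, 1.09 against 0.87, while *Figla* was close, 0.47 against 0.46.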

How the data were processed

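Read counts per gene symbol were deposited by the authors as whole numbers without normalization, made from 50-base single reads aligned to GRCm38 (mm10) with TopHat2 2.0.14. The counting tool and its use of the strand are not given in the sources used here. The authors also deposited the percent of reads mapped per library (not tested here), reads per splice junction, and transcripts assembled with StringTie 1.0.4, whose constant score column, as deposited, was not used. Counts were analysed with edgeR 4.0.16 (R 4.3.3). TMM scaling and filterByExpr (10 counts, 15 in total) were followed by the quasi-likelihood test across all 8 libraries, and p was adjusted by Benjamini-Hochberg over all 16601 genes tested. SE is the absolute log2 fold change over the root of the test's F. Single values were compared by exact two-sided permutation of the libraries. The fits were tested on simulated data. Gene positions come from GENCODE M21, and promoters from RefSeq (GRCm38.p6).

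Members, lists and tests were chosen with earlier results of these data known. The genes named are the members, those with the smallest p of each list (up to 4, or all where a list has up to 7), the 3 most like each member in pattern, overlapping and nearest genes (1 of which is not reported here), and *Mboat4*. Markers of other cell types are given as counts and sums. Alternatives were RLE size factors, DESeq2 1.42.0, limma-voom (limma 3.58.1), no filter, 6 libraries, and each library left out.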

Additional observations from a re-analysis of the deposited data

Results flagged for a closer look

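A single library stood apart from the other 3 of its group, by Dixon's ratio of its gap to the nearest library over the range of the group, in 5 of 58 groups of values examined (95% critical value). Chance alone does so in about 1 of 20 groups. *Sohlh2* was at 1.64 CPM in GOAT KO 1141 (ratio 0.839), and *Lhx8* was at 14.4 CPM in WT 1118 (ratio 0.845). The general oocyte markers summed to 98.0 CPM in GOAT KO 1146, below the rest of its group (ratio 0.913). In GOAT KO 1139 the oviduct genes summed to 11.9 CPM (ratio 0.864) and the fat genes to 458.0 CPM (ratio 0.972).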

How the results depend on the processing

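No paired analysis was made because the labels give no litter and no other pairing of the libraries. Whether some of the animals were littermates cannot be told from the labels. *Sohlh1*, *Sohlh2*, *Figla* and *Lhx8* kept a positive log2 fold change under all 13 alternatives and *Taf4b* a negative one. The log2 fold change of *Figla* was 0.4552 with DESeq2 (unadjusted p = 0.0566) and 0.4302 with the 6 libraries (edgeR unadjusted p = 0.088), and neither passed at 0.05. Without the filter on low counts 691 genes were called, in place of 278. With 1 library left out, called genes ranged from 231 to 437 (437 without WT 1120) and called members from 0 to 2 (0 without WT 1118 or GOAT KO 1141, and 2 without WT 1121 or GOAT KO 1146, when *Figla* was added). The log2 fold changes then ranged from 0.5426 to 1.088 for *Sohlh1*, 0.03037 to 0.467 for *Sohlh2*, 0.353 to 0.5898 for *Figla*, -0.0343 to 0.1576 for *Nobox*, 0.04518 to 0.2517 for *Lhx8* and -0.3486 to -0.09245 for *Taf4b*. Relative to the oocyte markers, *Sohlh2* was at -0.008428 against *Ddx4* alone, and with 1 library left out *Sohlh1* ranged from 0.3358 to 0.7862, *Figla* from 0.1691 to 0.3164, *Nobox* from -0.1444 to -0.009, *Taf4b* from -0.5282 to -0.2397, *Sohlh2* from -0.08762 to 0.1317 and *Lhx8* from -0.08773 to 0.07802. Log2 differences of junction reads then ranged from 0.71 to 1.529 for *Sohlh1*, 0.61 to 1.389 for *Figla* and -0.6188 to 0.05822 for *Sohlh2*. They ranged from -0.1544 to 0.1352 for *Nobox*, -0.1253 to 0.169 for *Lhx8* and -0.03699 to 0.2207 for *Taf4b*. Over all 8 libraries they were 0.6233 for *Sohlh1* and 0.3947 for *Figla* when scaled to the TMM library size. The added 0.5 weighs more on that scale, so the scaling and that weight changed together. The cause of these shifts between settings was not tested. Depth limits *Sohlh2*, *Sohlh1* and *Figla* most, with 12 to 121 counts a library.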
